A study of Mus musculus with 18 samples.

Results

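Injured knee cartilage at day 7 was compared with injured knee cartilage at day 1 after the anterior cruciate ligament (ACL) had been ruptured, to see how mature microRNAs (miRNAs) changed between the 2 times. The comparison used 6 of the 18 small RNA libraries of the series, chosen by their treatment labels, 3 from right knees at day 1 and 3 from right knees at day 7. The genotype label of all mice was C57bl6, and the study's methods give 12-week-old males. Loaded mice were anaesthetised with isoflurane and given buprenorphine, and the right knee received a single load that ruptured the ligament. The left knees of these mice, with no load, gave 3 contralateral libraries at each day, and mice that were not loaded gave 6 naive libraries, labelled with day 7. The study's scheme lists 6 naive mice with left and right knees pooled separately, so naive libraries of the 2 sides may come from the same mice, and the labels do not say which. Each library held cartilage caps of the femoral condyle pooled from several mice. The study's scheme pooled more mice per library at day 7, because cartilage was partly lost by then, whereas the series text gives the same number for all, so that an effect of pool size and one of day cannot be told apart. The injured libraries of the 2 days came from different mice.

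A mature miRNA is a short RNA that is cut from an arm of a hairpin (5p or 3p) and guides repression of messenger RNAs, mostly through its seed, here bases 2 to 8. Many miRNAs are cut from shared transcripts, so that neighbours on a chromosome often change together. A large group of this kind in the mouse lies at 12qF1, in the imprinted Dlk1-Dio3 domain. There the non-coding RNAs Meg3, Rian and Mirg are transcribed from the maternal chromosome. In cartilage, miR-140 is the best known miRNA of chondrocytes, and miR-199a, miR-199b and miR-214 belong to mesenchymal cells and the skeleton.

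The sequences below belong to the miRNAs on which the results turn. They were copied from RefSeq (GRCm38.p6) and are written 5′ to 3′ with the seed in capitals. The first set holds miRNAs outside the 12qF1 cluster, mostly pairs from the same hairpin or family, that rose at day 7.
miR-335-5p: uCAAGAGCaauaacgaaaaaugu
miR-335-3p: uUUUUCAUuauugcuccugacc
miR-34b-5p: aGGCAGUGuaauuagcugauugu
miR-34a-5p: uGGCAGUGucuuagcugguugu
miR-34b-3p: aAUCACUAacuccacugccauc
miR-34c-3p: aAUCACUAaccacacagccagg
miR-21a-5p: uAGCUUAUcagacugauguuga
miR-21b: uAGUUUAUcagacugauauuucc
miR-199a-5p: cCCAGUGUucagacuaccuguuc
miR-199a-3p: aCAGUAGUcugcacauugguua
miR-214-5p: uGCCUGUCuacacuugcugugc
miR-31-5p: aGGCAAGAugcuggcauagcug
In this set miR-34b-5p and miR-34a-5p shared 1 seed, and miR-34b-3p and miR-34c-3p shared another, whereas miR-21a-5p and miR-21b differed within it. miR-34a-5p was not past the test and is shown for its seed. miR-34c-5p, which rose, had no RefSeq sequence and is in neither the set nor the seed counts below.

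The second set comes from the 12qF1 cluster and holds abundant members beside near-identical ones, such as miR-379-3p and miR-411-3p, whose reads may be hard to keep apart.
miR-134-5p: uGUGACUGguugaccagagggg
miR-541-5p: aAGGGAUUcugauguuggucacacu
miR-127-3p: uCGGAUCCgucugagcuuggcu
miR-379-5p: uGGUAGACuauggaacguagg
miR-379-3p: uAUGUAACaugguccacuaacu
miR-411-3p: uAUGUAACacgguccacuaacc
miR-380-3p: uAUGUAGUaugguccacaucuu
miR-300-3p: uAUGCAAGggcaagcucucuuc
miR-381-3p: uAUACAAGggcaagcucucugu
Of the 30 members of the cluster that rose, 29 had a RefSeq sequence, and these held 28 different seeds. The 1 seed held by more than 1 of them was AUGUAAC, in miR-379-3p and miR-411-3p. Over all loci, the 49 rises with a sequence had 46 different seeds, beside 294 among the 365 tested miRNAs with a sequence. Most rises with a sequence therefore shared no seed with another of these rises.

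The last set holds miRNAs that fell.
miR-181a-5p: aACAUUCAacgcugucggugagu
miR-181a-2-3p: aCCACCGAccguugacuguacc
miR-107-3p: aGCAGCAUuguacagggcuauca
miR-193a-5p: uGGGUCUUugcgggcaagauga
miR-181a-5p and miR-181c-5p differed at 1 base, as did miR-107-3p and miR-103-3p. How reads that match more than 1 mature sequence were counted is not given in the sources used here, so that the split between such pairs is uncertain.

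Of 1412 miRNAs in the table, 428 passed the filter on low counts and were tested with limma-voom on all 18 libraries. Abundance is given as CPM, the count of a miRNA relative to the library size after TMM scaling, so that each value is a level relative to the other miRNAs of the library. A miRNA was called when its adjusted p, by the Benjamini-Hochberg method over the 428, was under 0.05. The 3 values of a day are always given in the order of replicates 1 to 3. Since these were pooled tissue samples, fewer cells of a type and less RNA per cell cannot be told apart. Nothing in the labels says how pools were formed within a group, so that p-values measure the spread between these libraries, which may in part be technical.

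Between day 1 and day 7, 67 miRNAs were called in injured cartilage (15.7% of those tested), of which 52 rose (12.1%) and 15 fell (3.5%). All 52 rises were at least 2-fold and 22 were at least 4-fold, whereas 10 of the 15 falls were at least 2-fold and none reached 4-fold. The higher calls together took 3.59% to 4.34% of the counts at day 1 and 9.06% to 11.2% at day 7. With library totals in place of TMM, 49 rose and 3 fell, so that rises made up 94.2% of the calls in place of 77.6%. The day 7 and day 1 libraries did not overlap for 64 of the 67 calls, and over all tested miRNAs 34.3% did not overlap, 18.7% with day 7 higher and 15.7% with day 7 lower. At an unadjusted p under 0.05 there were 118 miRNAs, 70 higher and 48 lower.

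The injured libraries held 758388 to 3189999 counts, with the lowest in day 7 replicate 1. Day 1 replicate 2 stood apart from the other day 1 libraries, with Spearman correlations across miRNAs of 0.954 and 0.947 with them, against 0.982 between those and 0.980 to 0.989 among the day 7 libraries. Its skeletal muscle miRNAs took 7.84% of the counts, against 19.5% and 22.3% in the other day 1 libraries and 7.89% to 14.5% at day 7. Without it 49 miRNAs rose and 9 fell, and 48 of the 67 calls were kept. The number of falls also came to 6 without day 1 replicate 3, day 7 replicate 1 or day 7 replicate 2, to 2 without day 7 replicate 3, and to 8, 9 and 7 without contralateral day 1 replicates 1, 2 and 3.

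**Figure D1:**
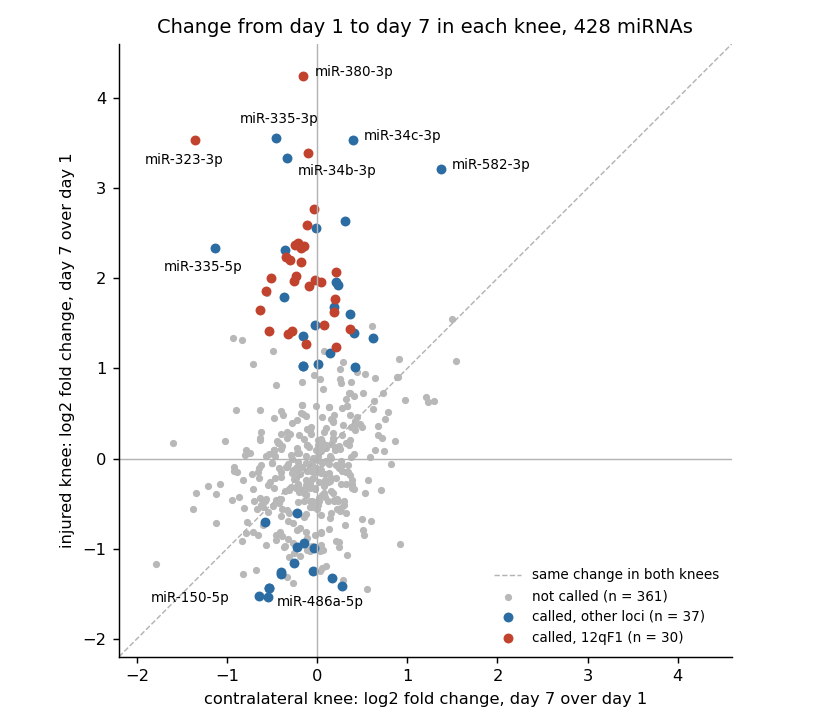
Change from day 1 to day 7 in the contralateral knee (horizontal axis) and the injured knee (vertical axis), as log2 fold change, for the 428 miRNAs tested. Coloured points were called in the injured knee, and the 30 called miRNAs of the 12qF1 cluster (red) lie between 1.23 and 4.25 on the vertical axis and between -1.35 and 0.36 on the horizontal axis.

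The 12qF1 cluster held the largest group of rises. All 48 tested members had a positive log2 fold change, 30 rose and none fell, with a median of 1.55 and a range of 0.10 to 4.25. Over all 428 miRNAs 199 changes were positive and the median was -0.07. Over the 380 outside the cluster 151 were positive and the median was -0.14. The summed level of the 48 was 5779, 4614 and 6778 CPM at day 1 and 15903, 17129 and 17124 CPM at day 7, beside 5191 to 6100.0 CPM in naive libraries. Day 1 libraries lay around the naive range, with replicate 2 below it and replicate 3 above it, and each day 7 library was above all of these. The cluster took 0.48% to 0.58% of the counts at day 1 and 1.53% to 1.70% at day 7.

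Of the 48, 46 were placed by RefSeq and lie within chr12:109571990-109743795 of GRCm38, between the start of Meg3 and the end of Mirg, all on the plus strand except miR-3071-3p. The members were listed in 3 groups. Of 6 from the regions of Meg3 and Rian, which lie on either side of Rtl1, 3 rose (median 1.37). Of 9 over Rtl1, a retrotransposon-derived gene to which all of them but miR-3071-3p are antisense, 3 rose (median 1.27). In the run from miR-379 to miR-410, which ends inside Mirg, 24 of 33 rose (median 1.86). In all alternatives of the analysis no member of the 3 groups fell, and between 20 and 34 rose, the lowest of these numbers when only 25 members were tested. Without day 1 replicate 2, 26 rose and 45 of the 48 had a positive change.

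**Figure D2:**
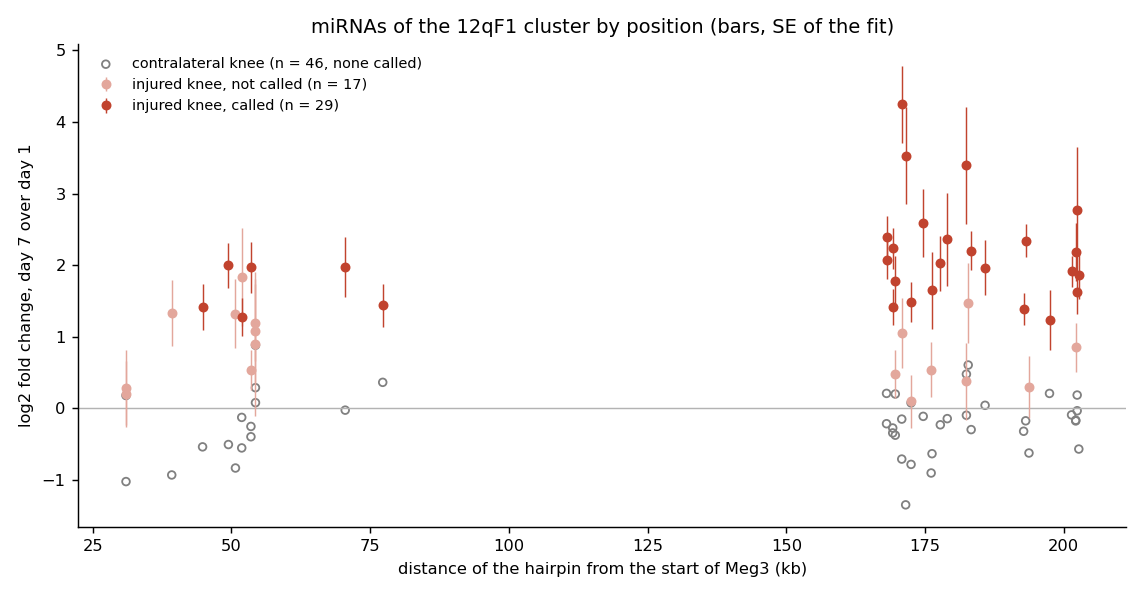
Log2 fold change from day 7 over day 1 (vertical axis) for the 46 placed miRNAs of the 12qF1 cluster, by distance of the hairpin from the start of Meg3 in kb (horizontal axis). Filled points with bars (SE of the fit) are the injured knee and all lie above 0, and open circles are the contralateral knee, where no member was called.

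Within the miR-379 to miR-410 run, miR-134-5p had the smallest p-value of the whole comparison. Its hairpin (GRCm38 chr12:109734139-109734209, plus strand) lies in an exon of Mirg, and it is best known from neurons, where it restrains dendritic spine growth. It had 44.9, 47.7 and 42.8 CPM in the day 1 libraries and 199, 249.8 and 239 CPM in the day 7 libraries (log2 change 2.34 ± 0.23 SE, adjusted p = 1.37e-06 by limma-voom). The libraries of each day sat close together and far from those of the other day.

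miR-379-5p, from the first hairpin of that run (GRCm38 chr12:109709060-109709125, plus strand), was the most abundant of the run to rise. It had 598, 412 and 704 CPM in the day 1 libraries and 2102, 2456 and 2494 CPM in the day 7 libraries (log2 change 2.07 ± 0.27 SE, adjusted p = 1.37e-05 by limma-voom). Its other arm, miR-379-3p, had 30.3, 17.6 and 17.5 CPM in the day 1 libraries and 109, 124 and 105 CPM in the day 7 libraries (log2 change 2.39 ± 0.30 SE, adjusted p = 9.73e-06 by limma-voom). Both arms rose, the 5p arm being far more abundant. miR-411-3p, which shares the seed of miR-379-3p, had 38.1, 39.4 and 31.6 CPM in the day 1 libraries and 162, 178 and 171 CPM in the day 7 libraries (log2 change 2.23 ± 0.29 SE, adjusted p = 1.23e-05 by limma-voom). These 2 mature sequences differ at 2 bases.

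miR-541-5p (GRCm38 chr12:109742409-109742498, plus strand, in an intron of Mirg) had 545, 467 and 451 CPM in the day 1 libraries and 1808, 1758 and 1927 CPM in the day 7 libraries (log2 change 1.91 ± 0.22 SE, adjusted p = 7.06e-06 by limma-voom). miR-300-3p (GRCm38 chr12:109724313-109724391, plus strand) had 104, 69.5 and 77.7 CPM in the day 1 libraries and 338, 398 and 411 CPM in the day 7 libraries (log2 change 2.20 ± 0.27 SE, adjusted p = 9.73e-06 by limma-voom). miR-381-3p, which differs from miR-300-3p at 3 bases, had 422, 158 and 544 CPM in the day 1 libraries and 1194, 1407 and 1283 CPM in the day 7 libraries (log2 change 1.96 ± 0.38 SE, adjusted p = 0.000792 by limma-voom). For all of these the day 7 libraries lay above every day 1 library, and day 1 replicate 2 was the lowest for miR-300-3p and miR-381-3p.

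With all libraries kept, the largest fold change belonged to a scarce member, miR-380-3p (GRCm38 chr12:109711803-109711863, plus strand). It had 2.61, 0 and 2.92 CPM in the day 1 libraries and 23.4, 27.6 and 35.5 CPM in the day 7 libraries (log2 change 4.25 ± 0.54 SE, adjusted p = 9.73e-06 by limma-voom), and the day 1 libraries together held 11 reads of it against 185 at day 7. Its log2 change was 3.41 without day 1 replicate 2, where miR-34c-3p had 5.10 and miR-335-3p 3.58, and 4.87 without day 1 replicate 3. miR-323-3p, also scarce, had 1.04, 0 and 1.94 CPM in the day 1 libraries and 22.0, 8.60 and 12.0 CPM in the day 7 libraries (log2 change 3.53 ± 0.67 SE, adjusted p = 0.000707 by limma-voom). Its log2 change was 4.18 without day 1 replicate 3, and it stands on 6 reads at day 1 and 71 at day 7. miR-1193-3p had 5.22, 1.68 and 2.43 CPM in the day 1 libraries and 19.2, 18.6 and 19.6 CPM in the day 7 libraries (log2 change 2.59 ± 0.48 SE, adjusted p = 0.000585 by limma-voom). miR-369-3p had 21.9, 0 and 33.5 CPM in the day 1 libraries and 48.1, 62.5 and 71.1 CPM in the day 7 libraries (log2 change 2.77 ± 0.88 SE, adjusted p = 0.0396 by limma-voom). Day 1 replicate 2 had no read of it, and without that library the log2 fold change was 1.27, limma-voom adjusted p = 0.0921, no longer a call. It was 3.62 and 4.04 without day 1 replicates 1 and 3, and the call was also lost without day 7 replicate 2 or 3 (limma-voom adjusted p = 0.0716 and 0.0950). With edgeR's quasi-likelihood test the log2 change of miR-369-3p was 1.66 (edgeR adjusted p = 0.0935), again not a call. The same held with only the 6 injured libraries and with the 12 injured and contralateral libraries (limma-voom adjusted p = 0.0946 and 0.0546). miR-376c-3p, for which the RefSeq table held no entry, had 7.83, 0.838 and 6.32 CPM in the day 1 libraries and 19.2, 23.1 and 25.9 CPM in the day 7 libraries (log2 change 2.37 ± 0.64 SE, adjusted p = 0.0123 by limma-voom), and a log2 change of 2.97 without day 1 replicate 1. The days did not overlap for any of these scarce members.

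Opposite Rtl1, miR-127-3p (GRCm38 chr12:109592846-109592915, plus strand) was the most abundant miRNA of the whole cluster. It had 1649.7, 1901 and 1769.9 CPM in the day 1 libraries and 4392, 4555 and 3931 CPM in the day 7 libraries (log2 change 1.27 ± 0.27 SE, adjusted p = 0.00159 by limma-voom), and both days had narrow ranges. miR-434-5p (GRCm38 chr12:109594506-109594599, plus strand) had 654, 325 and 945 CPM in the day 1 libraries and 2209, 2333 and 2363 CPM in the day 7 libraries (log2 change 1.97 ± 0.36 SE, adjusted p = 0.000579 by limma-voom), whereas its other arm had a log2 fold change of 0.53 ± 0.28 SE (limma-voom adjusted p = 0.234). miR-431-5p, the other rise there, went up 4.00-fold.

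The other 11 rises of the miR-379 to miR-410 run had folds of 2.35 for miR-154-5p, 3.41 for miR-299a-3p, 2.80 for miR-329-3p, 3.08 for miR-369-5p, 2.61 for miR-382-5p, 4.55 for miR-409-3p, 3.64 for miR-410-3p, 2.67 for miR-411-5p, 4.07 for miR-495-3p, 3.13 for miR-543-3p and 5.13 for miR-667-3p. miR-382-5p and miR-410-3p come from hairpins in exons of Mirg. Of these, miR-154-5p, miR-543-3p and miR-667-3p were not called without day 1 replicate 2 (limma-voom adjusted p = 0.131, 0.0655 and 0.0535). Their calls were lost in other alternatives too, in all 7 for miR-154-5p, 6 for miR-543-3p and 3 for miR-667-3p.

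In the regions of Meg3 and Rian the rises were miR-337-5p (2.66-fold), miR-341-3p (3.94-fold) and miR-370-3p (2.71-fold), the last pair from introns of Rian. The 3 members there that were not called had log2 fold changes of 1.33 for miR-493-3p, 0.29 for miR-673-5p and 0.20 for miR-673-3p. The first of these had a limma-voom adjusted p = 0.0559. All 3 were scarce, with no library above 13 CPM.

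Both arms were tested for 12 hairpins of the cluster. In 3 of them both arms were called, and in 7 only 1 was. Over all 86 hairpins with both arms tested these numbers were 7 and 9, and over the 74 outside the cluster 4 and 2. For miR-380, miR-376b, miR-409, miR-299a, miR-127 and miR-329 the 3p arm was the one called, and for miR-434 the 5p arm. miR-376b-3p, for example, had a log2 fold change of 3.40 ± 0.82 SE and miR-376b-5p of 0.38 ± 0.54 SE. The arm not called did not always have the smaller change. The scarce miR-127-5p (mean 5.43 CPM) had 1.84 and was not called, beside 1.27 for miR-127-3p. The value of miR-376b-3p was 4.34 without day 1 replicate 1 and 2.63 without day 1 replicate 2. Whether the arms of a hairpin differed in their change was not tested.

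A second imprinted locus gave the largest rise outside the cluster. miR-335 comes from an intron of Mest (GRCm38 chr6:30741299-30741396, plus strand), a gene expressed from the paternal chromosome in mesenchymal tissue. miR-335-3p had 38.6, 30.2 and 37.9 CPM in the day 1 libraries and 306, 487 and 501 CPM in the day 7 libraries, an 11.8-fold rise (log2 change 3.56 ± 0.43 SE, adjusted p = 9.73e-06 by limma-voom). The day 1 libraries held no more than naive libraries (24.0 to 52.9 CPM), and the lowest day 7 library held more than any of these. miR-335-5p had 22.5, 8.38 and 17.98 CPM in the day 1 libraries and 45.3, 90.1 and 113 CPM in the day 7 libraries (log2 change 2.34 ± 0.60 SE, adjusted p = 0.00910 by limma-voom). Other imprinted loci gave few calls. Of 3 tested arms of miR-296 and miR-298, from the Gnas locus, none was called (log2 fold changes -0.56 to 0.42), and of 23 from the repeat-rich intron of Sfmbt2 only miR-669l-5p was. That one had 2.09, 6.70 and 1.46 CPM in the day 1 libraries and 12.4, 10.4 and 5.65 CPM in the day 7 libraries (log2 change 1.60 ± 0.50 SE, adjusted p = 0.0350 by limma-voom), its days overlapped, and the call was lost in 7 alternatives. Without day 1 replicate 2 its log2 change was 2.23.

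The miR-34 family, whose genes are known targets of the tumour suppressor p53, had 5 tested arms, and 4 of them rose. miR-34b and miR-34c are made from hairpins that lie side by side (GRCm38 chr9:51103562-51103645, minus strand, and chr9:51103034-51103110, minus strand), opposite an intron of Btg4. miR-34c-5p was the most abundant of them and had 58.0, 38.5 and 48.1 CPM in the day 1 libraries and 267, 279.7 and 361 CPM in the day 7 libraries (log2 change 2.64 ± 0.33 SE, adjusted p = 9.73e-06 by limma-voom). miR-34b-3p had 3.66, 5.03 and 3.40 CPM in the day 1 libraries and 33.0, 42.1 and 47.8 CPM in the day 7 libraries (log2 change 3.33 ± 0.48 SE, adjusted p = 4.79e-05 by limma-voom). miR-34b-5p had 6.79, 5.86 and 5.83 CPM in the day 1 libraries and 42.6, 27.6 and 46.8 CPM in the day 7 libraries (log2 change 2.56 ± 0.48 SE, adjusted p = 0.000622 by limma-voom). In each of these 3 arms the days were well apart. miR-34c-3p was scarcer and uneven at day 1, with 0.522, 8.38 and 0 CPM in the day 1 libraries and 12.4, 13.1 and 14.3 CPM in the day 7 libraries (log2 change 3.53 ± 0.77 SE, adjusted p = 0.00227 by limma-voom). Its log2 change was 5.10 without day 1 replicate 2 and 2.75 without day 1 replicate 3.

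miR-34a-5p comes from another chromosome. It had 20.4, 10.1 and 20.9 CPM in the day 1 libraries and 26.1, 27.6 and 31.6 CPM in the day 7 libraries, and its log2 fold change of 0.77 ± 0.47 SE was not past the test (limma-voom adjusted p = 0.317). Its lowest day 7 library was above its highest day 1 library, which held for 18.7% of all tested miRNAs. The family as a whole summed to 89.3, 67.9 and 78.2 CPM at day 1 and 381, 390.1 and 502 CPM at day 7, and naive libraries had 47.3 to 89.7 CPM.

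miR-21a and miR-31 are miRNAs known to rise in many injured and inflamed tissues. miR-21a-5p, from an exon of Vmp1 (GRCm38 chr11:86584067-86584158, minus strand), was the second most abundant of all miRNAs that rose, miR-199a-3p and miR-199b-3p being 1 measurement. It had 8263, 4357 and 7409 CPM in the day 1 libraries and 19836, 25533 and 30656 CPM in the day 7 libraries, a 3.89-fold rise (log2 change 1.96 ± 0.35 SE, adjusted p = 0.000482 by limma-voom). Day 1 replicate 2 was the lowest library, and the days lay well apart. Its passenger arm miR-21a-3p had only 4.70, 3.35 and 1.94 CPM at day 1 and 4.12, 14.5 and 14.3 CPM at day 7. These overlapped, and the call (limma-voom adjusted p = 0.0464) was lost in 7 alternatives. miR-21b, from an intron of Egfem1 on chromosome 3, differs from miR-21a-5p at 5 bases and rose 3.21-fold (adjusted p = 0.00851 by limma-voom).

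miR-31-5p (GRCm38 chr4:88910557-88910662, minus strand) was scarce at day 1 and rose clearly. It had 8.88, 5.86 and 4.37 CPM in the day 1 libraries and 23.4, 29.0 and 40.9 CPM in the day 7 libraries (log2 change 2.31 ± 0.33 SE, adjusted p = 4.56e-05 by limma-voom). Its day 7 libraries lay above all 6 naive libraries, which reached 11.1 CPM.

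miR-199 and miR-214 carried the most reads of any group that rose. Their list summed to 35108, 20658 and 37611 CPM at day 1 and 59314, 65926 and 70566 CPM at day 7, and 5 of its 6 members rose. miR-199a-3p and miR-199b-3p have the same mature sequence and identical counts, which makes them 1 measurement, with 26068, 13622 and 29279.5 CPM in the day 1 libraries and 41502, 45785 and 46785 CPM in the day 7 libraries (log2 change 1.02 ± 0.30 SE, adjusted p = 0.0237 by limma-voom). The day 1 libraries were uneven, replicate 2 being the lowest. Without replicate 2 the log2 fold change was 0.81, limma-voom adjusted p = 0.0696, which was not a call.

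miR-199a-5p did not depend on that library. It can come from Mir199a-2 (GRCm38 chr1:162217814-162217923, plus strand), in an exon of Dnm3os, or from Mir199a-1 on chromosome 9, opposite an intron of Dnm2. It had 7675, 6101 and 6784 CPM in the day 1 libraries and 14848, 16963 and 21065 CPM in the day 7 libraries (log2 change 1.36 ± 0.27 SE, adjusted p = 0.00108 by limma-voom). Day 1 levels were close together and day 7 levels spread more widely above them. miR-199b-5p had 578, 179 and 556 CPM in the day 1 libraries and 904, 930.0 and 669.5 CPM in the day 7 libraries, and its log2 fold change of 1.08 ± 0.66 SE had a limma-voom adjusted p = 0.317.

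miR-214 shares the Dnm3os transcript (GRCm38 chr1:162223368-162223477, plus strand), and both of its arms rose. miR-214-5p had 636, 524 and 804 CPM in the day 1 libraries and 1617, 1819 and 1650.3 CPM in the day 7 libraries (log2 change 1.39 ± 0.29 SE, adjusted p = 0.00139 by limma-voom). miR-214-3p had 150.4, 231 and 188 CPM in the day 1 libraries and 444, 428 and 396 CPM in the day 7 libraries (log2 change 1.17 ± 0.28 SE, adjusted p = 0.00465 by limma-voom). For both the days were well separated and day 7 libraries lay within narrow ranges.

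**Figure D3:**
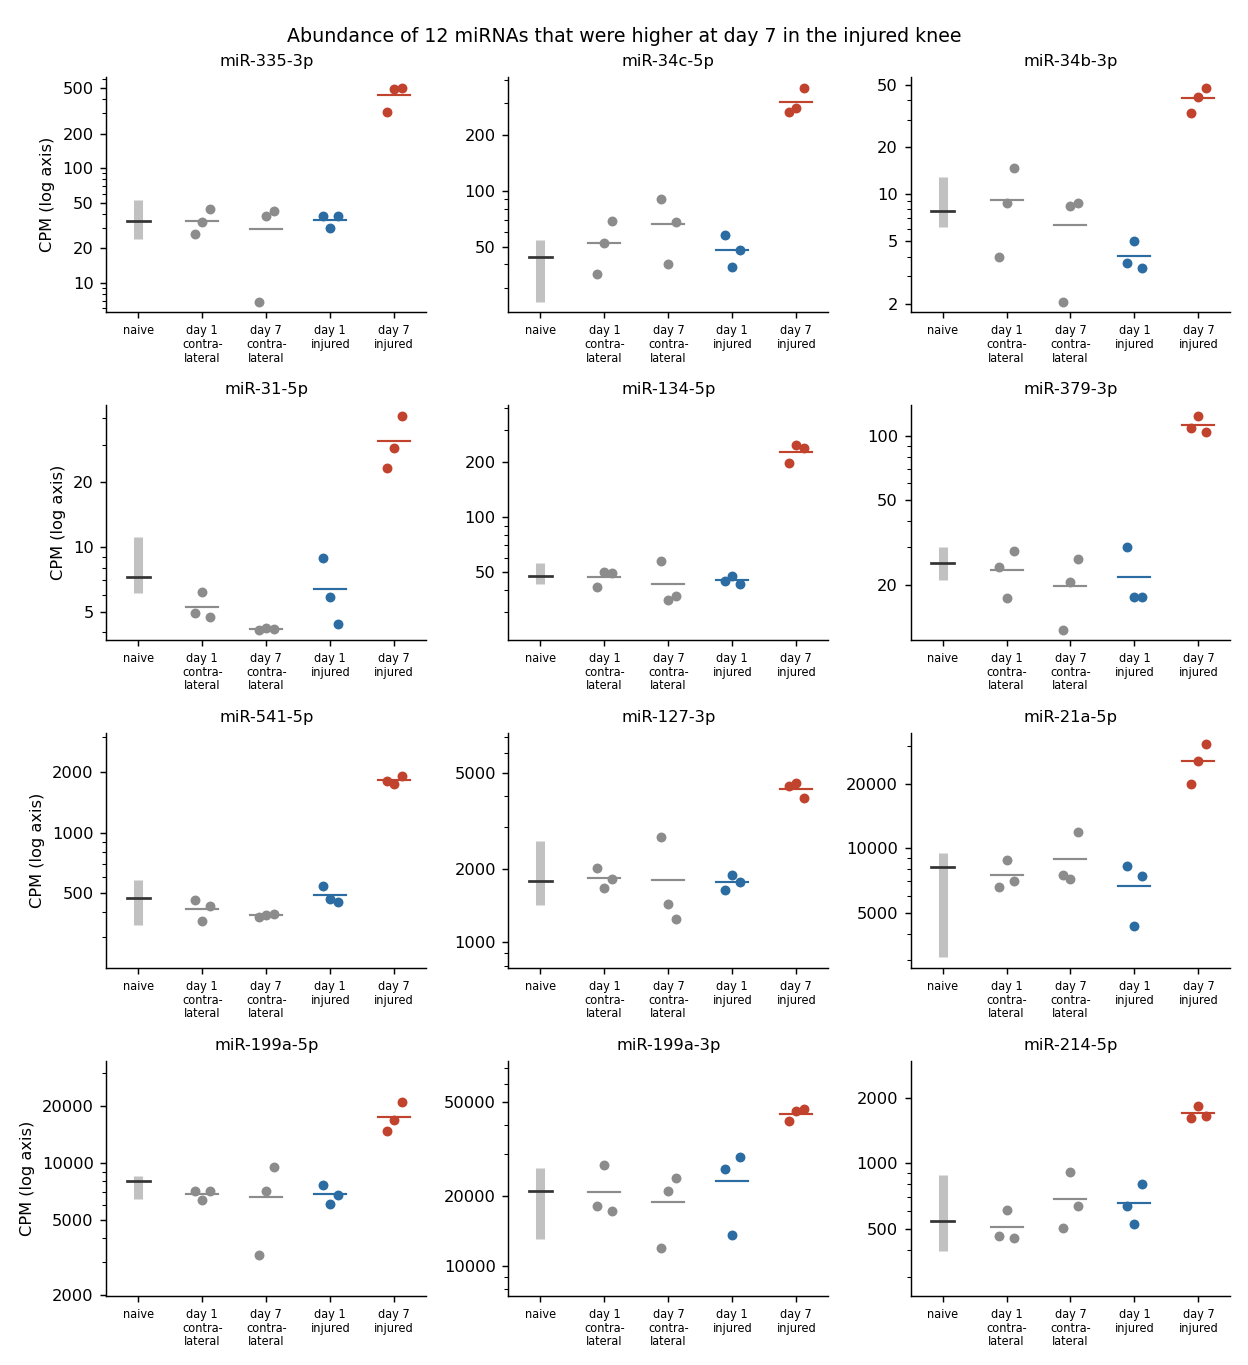
Normalised abundance in CPM (vertical axes, log scale) of 12 miRNAs that rose, in each injured and contralateral library (points, with the mean as a line), with naive libraries as a grey bar from the lowest to the highest value and a line at the median. In each panel the 3 day 7 injured points lie above all other groups, with miR-335-3p at 306 to 501 CPM against 24.0 to 52.9 CPM in naive libraries.

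The remaining rises were single members of their families or of no list. miR-152-5p, from an intron of Copz2 (GRCm38 chr11:96850393-96850465, plus strand), had 87.7, 85.4 and 75.8 CPM in the day 1 libraries and 198, 215 and 218 CPM in the day 7 libraries (log2 change 1.34 ± 0.24 SE, adjusted p = 0.000525 by limma-voom), and it was the 1 arm called among 6 of miR-148 and miR-152. miR-582-3p, from an intron of Pde4d, had 1.04, 0 and 0.972 CPM in the day 1 libraries and 5.50, 8.15 and 8.63 CPM in the day 7 libraries (log2 change 3.21 ± 0.63 SE, adjusted p = 0.000837 by limma-voom), which rests on 4 reads at day 1 and 48 at day 7. miR-224-5p, from an intron of Gabre on the X chromosome, rose 3.81-fold at levels under 15 CPM. let-7c-1-3p, a passenger arm, rose 2.79-fold, while no other of 19 arms of the let-7 family was called. miR-23b-5p rose 2.07-fold (limma-voom adjusted p = 0.0424), and that call was lost in 9 alternatives.

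miR-140, the defining miRNA of the chondrocytes that the label names, was present in all 6 libraries and was not called. miR-140-5p had 5635, 2760.1 and 4516 CPM in the day 1 libraries and 4344, 6039 and 6973 CPM in the day 7 libraries (log2 change 0.47 ± 0.38 SE, adjusted p = 0.474 by limma-voom). miR-140-3p had 2328, 3014 and 2336 CPM at day 1 and 2139, 2994 and 2636 CPM at day 7, with a log2 fold change of 0.03 ± 0.22 SE. miR-455-5p, from an intron of the cartilage collagen gene Col27a1 (GRCm38 chr4:63256867-63256888, plus strand), was the 1 of 4 arms to rise, with 139, 102 and 102 CPM in the day 1 libraries and 173, 239.9 and 283 CPM in the day 7 libraries (log2 change 1.01 ± 0.31 SE, adjusted p = 0.0277 by limma-voom). Its call was lost without day 1 replicate 2 (limma-voom adjusted p = 0.0592) and in 4 other alternatives. miR-455-3p had a log2 fold change of -0.27 ± 0.48 SE, opposite in sign to the other arm of its hairpin. The summed level of the 4 was 8206, 6004 and 7117 CPM at day 1 and 6756, 9407 and 9983 CPM at day 7, and the days overlapped.

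The falls were fewer and more often lost. Of the 15, 2 were called in every alternative that tested them, beside 41 of the 52 rises. The most stable were miR-486a-5p and miR-486b-5p, with identical counts in all libraries and therefore 1 measurement, known from red cells and from muscle. They had 3812, 7771 and 6255 CPM in the day 1 libraries and 2506, 2256 and 1690.1 CPM in the day 7 libraries, a 2.70-fold fall (log2 change -1.43 ± 0.27 SE, adjusted p = 0.000652 by limma-voom), and were called in all alternatives. On the 3p side, miR-486a-3p fell 2.44-fold and miR-486b-3p fell 2.40-fold. Their counts were nearly the same in each injured library, such as 860 and 842 in day 1 replicate 2. They may therefore not be separate measurements. miR-486a-3p had 284, 720.4 and 413 CPM in the day 1 libraries and 189.6, 195 and 157 CPM in the day 7 libraries, with day 1 replicate 2 the highest. Without that library neither 3p arm was called (limma-voom adjusted p = 0.0964 and 0.118), and the same held without day 7 replicate 3 (limma-voom adjusted p = 0.0725 and 0.0846).

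miR-150-5p, a miRNA of mature lymphocytes, had the largest fall among miRNAs of at least 10 CPM on average. It had 369, 1158 and 424 CPM in the day 1 libraries and 189.6, 208 and 186 CPM in the day 7 libraries (log2 change -1.53 ± 0.41 SE, adjusted p = 0.0123 by limma-voom). Day 1 replicate 2 was far above the other day 1 libraries, and without it the log2 fold change was -0.91, limma-voom adjusted p = 0.155. The call was also lost without any 1 of the 3 day 7 injured replicates (limma-voom adjusted p = 0.0665, 0.0523 and 0.0736) and with library totals (limma-voom adjusted p = 0.0809).

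The miR-181 family, which tunes signalling in lymphocytes and is made in many tissues, had 2 falls among 7 arms, both from miR-181a. miR-181a-5p, the most abundant miRNA that fell, had 12496, 23192 and 17568 CPM in the day 1 libraries and 10148, 9442 and 6845 CPM in the day 7 libraries (log2 change -0.99 ± 0.25 SE, adjusted p = 0.00851 by limma-voom). Without day 1 replicate 2 it was not called (log2 fold change -0.67, limma-voom adjusted p = 0.0974), nor without day 7 replicate 3 (limma-voom adjusted p = 0.132). miR-181a-2-3p, from Mir181a-2 opposite an intron of Nr6a1, had 71.0, 88.8 and 153 CPM at day 1 and 68.7, 41.6 and 51.5 CPM at day 7, and its call was lost in 17 alternatives. The other 5 arms had log2 fold changes of -0.54 to 0.12.

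miR-30d-5p had 7232, 8253 and 7759 CPM in the day 1 libraries and 5429, 5472 and 4482 CPM in the day 7 libraries (log2 change -0.60 ± 0.17 SE, adjusted p = 0.0165 by limma-voom), the smallest change of all calls, and was the 1 of 11 arms of the miR-30 family to fall. Of the 11 arms, 10 had a negative change, beside 199 positive changes among all 428 tested miRNAs. The libraries of a day lay close together for miR-30d-5p, but the call was lost in 14 alternatives. miR-107-3p, from an intron of Pank1 (GRCm38 chr19:34820687-34820773, minus strand), had 380.2, 358 and 388 CPM in the day 1 libraries and 214, 264 and 217 CPM in the day 7 libraries (log2 change -0.70 ± 0.23 SE, adjusted p = 0.0491 by limma-voom), a call lost in 18 alternatives. Its close relative miR-103-3p had a log2 fold change of -0.50 ± 0.21 SE (limma-voom adjusted p = 0.120).

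The remaining falls were miR-328-3p (2.37-fold), miR-504-5p (2.50-fold), miR-193a-5p (2.23-fold), miR-676-3p (1.97-fold), miR-133a-5p (2.67-fold) and miR-6538 (2.89-fold). miR-328-3p had 1039.8, 1538 and 2442 CPM in the day 1 libraries and 729, 672 and 608 CPM in the day 7 libraries (log2 change -1.24 ± 0.40 SE, adjusted p = 0.0424 by limma-voom), and day 1 replicate 3 was the highest. Each of these 6 calls was lost in at least 7 alternatives. Without day 1 replicate 2, those of miR-328-3p, miR-504-5p, miR-676-3p and miR-6538 were lost.

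**Figure D4:**
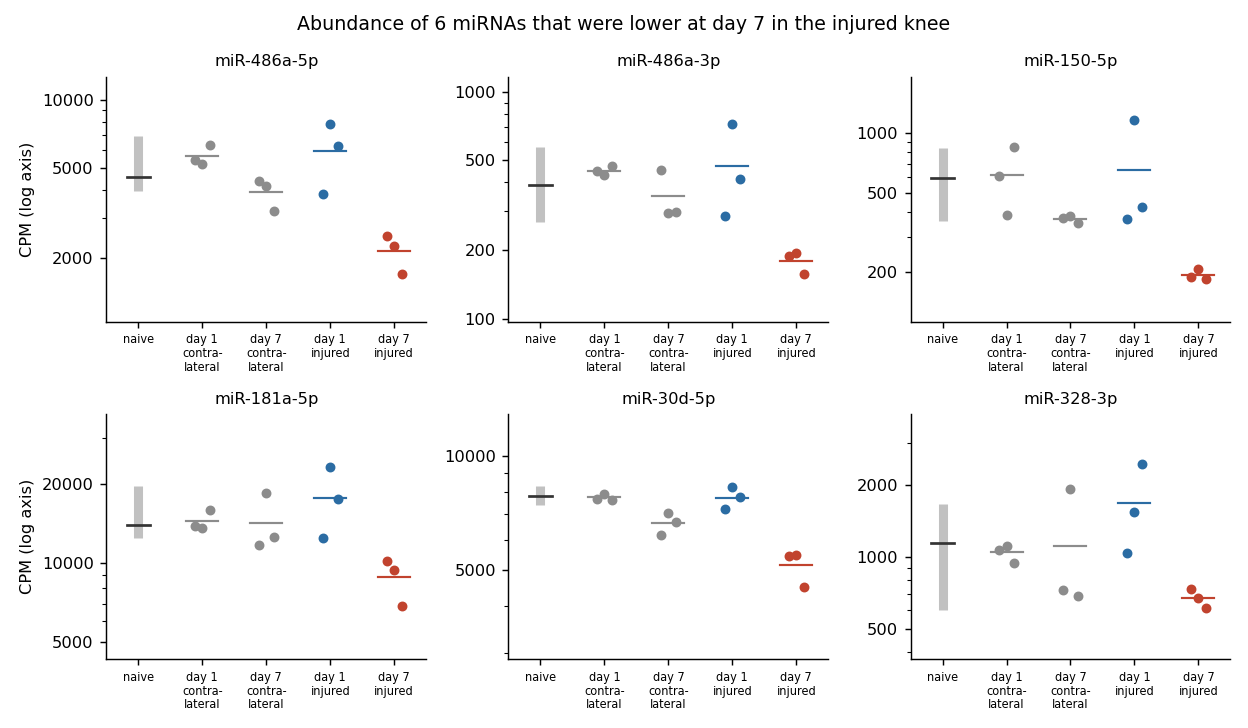
Normalised abundance in CPM (vertical axes, log scale) of 6 miRNAs that fell, drawn as in the plot of the rises. The 3 day 7 injured libraries lie below the day 1 injured libraries in each panel. For miR-486a-5p they lie at 1690.1 to 2506 CPM against 3812 to 7771 CPM. Replicate 2 is the highest of the day 1 injured points in every panel except that of miR-328-3p.

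Markers of other cell types were read beside these changes. The cell type label is chondrocyte, but skeletal muscle miRNAs were abundant in every library, and miR-1a-3p was the second most abundant miRNA of the injured libraries. All 8 tested muscle arms had a negative change (median -0.51, range -1.42 to -0.24), and 1 fell. Over all 428 tested miRNAs 199 changes were positive. The 8 arms may not be 8 separate measurements. For example, the counts of miR-1b-5p (46510, 8459 and 79726 at day 1) moved with those of miR-1a-3p (359669, 60745 and 551617). Whether muscle arms shared reads was not tested. With voomWithQualityWeights 5 of the 8 muscle arms fell. Their summed level was 216660.0, 62206 and 313607 CPM at day 1 and 151211, 79448 and 121804 CPM at day 7, so that the days overlapped through day 1 replicate 2. The muscle arm that fell, miR-133a-5p, had 17.8, 6.70 and 27.7 CPM at day 1 and 9.62, 6.34 and 4.32 CPM at day 7, and miR-208a-3p and miR-133b-5p had no read in the 6 libraries.

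Erythroid miRNAs summed to 6524, 10681 and 9643 CPM at day 1 and 4523, 4473 and 3391 CPM at day 7, with naive libraries at 6512 to 9057 CPM. The day 7 injured sums lay below all day 1 injured and naive sums. That difference followed the miR-486 arms, 4 of the 7 members but not 4 separate measurements. miR-451a, the defining red cell miRNA, had 1512, 988 and 2075 CPM in the day 1 libraries and 1232, 1269 and 780.5 CPM in the day 7 libraries (log2 change -0.47 ± 0.42 SE, adjusted p = 0.516 by limma-voom). miR-144-5p and miR-144-3p had log2 fold changes of -0.22 and 0.19. Without day 1 replicate 2, 2 of the 7 were called.

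Leukocyte miRNAs summed to 9572, 9034 and 8378 CPM at day 1 and 9827, 10448 and 9016 CPM at day 7. Of 10 members, miR-150-5p alone was called. miR-142a-3p, found in all blood leukocytes, had 3020.1, 1349 and 2158 CPM in the day 1 libraries and 3189, 3612 and 3233 CPM in the day 7 libraries (log2 change 0.68 ± 0.47 SE, adjusted p = 0.395 by limma-voom), and miR-223-3p, of myeloid cells, had a log2 fold change of -0.59 ± 0.32 SE. The vascular miR-126a, miR-143 and miR-145a had no call in 6 arms (log2 fold changes -0.31 to 0.17), and their sums of 74599.5, 52437 and 90584 CPM and 81139, 80524 and 74494 CPM overlapped. Epithelial miRNAs were close to absent, and none of 3 tested arms was called. They summed to 111, 236 and 105 CPM at day 1 and 85.2, 96.8 and 60.4 CPM at day 7, with naive libraries at 114 to 180 CPM. The day 7 injured sums of these arms lay below all day 1 injured and naive sums. For 2 of the 3 arms every day 7 library lay below the day 1 libraries, as for 15.7% of all tested miRNAs. The part of muscle, blood and other tissue carried in the caps in the changes of named miRNAs was not tested.

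Other families mostly did not pass the test. The 5 arms of the miR-378 family, made in metabolic and muscle tissue, all had negative changes, between -1.03 and -0.61. Over all 428 tested miRNAs 199 changes were positive. The mature sequences of miR-378b, miR-378c and miR-378d are nearly the same. Members may therefore share reads and need not be 5 separate measurements. The smallest limma-voom adjusted p among the 5 arms was 0.0730. Their summed level was 21510.3, 15334 and 37422 CPM at day 1 and 17465, 12284 and 11190.3 CPM at day 7. That sum overlapped through the same day 1 library in which muscle miRNAs were low. Without that library 3 of the 5 arms fell, and with voomWithQualityWeights all 5 did. No member was called in the miR-29 family of matrix regulators (5 arms, -0.97 to 0.23), the miR-17 to miR-92 group linked to proliferation (19 arms, -0.86 to 0.72), miR-15, miR-16, miR-195 and miR-497 (10 arms) or miR-221 and miR-222 (3 arms). The same was true of miR-10 and miR-196 (6 arms), miR-99, miR-100 and miR-125 (9 arms) and the X-linked miR-322 to miR-503 group (9 arms). miR-210-3p, known to rise in hypoxia, had 35.0, 29.3 and 34.5 CPM in the day 1 libraries and 65.9, 55.7 and 58.5 CPM in the day 7 libraries (log2 change 0.84 ± 0.38 SE, adjusted p = 0.150 by limma-voom). Its day 7 libraries lay above its day 1 libraries, as for 18.7% of all tested miRNAs.

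Of the most abundant miRNAs of the 6 libraries, miR-199a-3p, measured together with miR-199b-3p, was the 1 called, and the others are given by their values. miR-148a-3p had 146829, 61026 and 271387 CPM in the day 1 libraries and 100405, 144027 and 138782 CPM in the day 7 libraries (log2 change -0.10 ± 0.68 SE, adjusted p = 0.931 by limma-voom), with day 1 libraries that differed more among themselves than the days did. miR-1a-3p had 187831, 50883 and 268001 CPM in the day 1 libraries and 127800.0, 67190.2 and 103150.0 CPM in the day 7 libraries (log2 change -0.55 ± 0.48 SE, adjusted p = 0.512 by limma-voom). miR-26a-5p, miR-99a-5p, miR-126a-3p and let-7c-5p had log2 fold changes of -0.30, -0.33, 0.15 and 0.18. let-7i-5p, at 0.43 ± 0.18 SE, came nearest to a call among these (limma-voom adjusted p = 0.122), and let-7f-5p was at -0.01 ± 0.21 SE. Of the 52 rises, 9 had a mean of at least 1000 CPM over the 6 libraries, 30 were under 100 CPM and 9 were under 10 CPM.

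The same step in time was then examined in the contralateral knee, which shared the mice, the anaesthesia and the days but not the load. There, limma-voom with Benjamini-Hochberg adjustment called no miRNA (0%), while 25 passed an unadjusted p under 0.05, 6 higher and 19 lower, and DESeq2 called 2. These were miR-199b-5p (log2 fold change 2.57, DESeq2 adjusted p = 0.0134) and miR-1291 (log2 fold change 2.70, DESeq2 adjusted p = 0.0345). The days did not overlap for 8.64% of the 428 miRNAs, 1.87% with day 7 higher and 6.78% with day 7 lower, against 34.3% in the injured knee. The median absolute log2 fold change was 0.27, against 0.47 in the injured knee. Over the 52 miRNAs that rose in the injured knee, the contralateral median was -0.12, with a range of -1.35 to 1.37. For the 48 members of the 12qF1 cluster it was -0.18.

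Whether the change over time differed between the knees was tested directly, as the injured change minus the contralateral change. By that test 29 miRNAs had a larger rise in the injured knee (6.78%) and none had a larger fall. The 29 are all among the 52 rises, and both tests use the same injured libraries. Of the 29, 21 lie in the 12qF1 cluster, and the others were miR-335-3p, miR-335-5p, miR-34b-3p, miR-34b-5p, miR-34c-5p, miR-31-5p, miR-21a-5p and miR-199a-5p. miR-335-3p, for example, had 26.6, 33.8 and 44.2 CPM in the contralateral day 1 libraries and 6.87, 38.4 and 42.4 CPM at day 7, and the difference of the log2 changes was 4.02 ± 0.63 SE, limma-voom adjusted p = 0.000396. For miR-31-5p the contralateral libraries held 4.93, 6.19 and 4.69 CPM and 4.12, 4.17 and 4.16 CPM, and the difference was 2.67 ± 0.51 SE, limma-voom adjusted p = 0.00158. For miR-199a-3p the difference was 1.18 ± 0.43 SE, limma-voom adjusted p = 0.136, and for miR-214-5p it was 0.98 ± 0.41 SE, limma-voom adjusted p = 0.191. None of the 15 falls passed this test. The difference was -0.90 ± 0.38 SE, limma-voom adjusted p = 0.191 for miR-486a-5p, which had 5429.9, 5173 and 6333 CPM in the contralateral day 1 libraries and 4355, 4173 and 3230.0 CPM at day 7.

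Naive libraries, which may share mice and need not be 6 independent samples, were used to place both days. The day 1 mean lay within the range of the 6 naive libraries for 48 of the 52 rises and 11 of the 15 falls, beside 86.4% of all tested miRNAs. At day 7 all 3 libraries lay above all 6 naive libraries for 49 of the 52 rises, beside 15.4% of all tested miRNAs, and below them for 9 of the 15 falls, beside 8.64%. Among the rises of the 12qF1 cluster this held for all 30. miR-150-5p and the arms of miR-486 were among the falls whose day 7 libraries lay below the naive range, which for miR-486a-5p was 3937 to 6939 CPM. These counts use the injured libraries that made the calls, so they describe where the levels lay.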

How the data were processed

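Cartilage of the femoral condyle was cut from subchondral bone, frozen and pooled, and small RNA libraries were made from its RNA. Per the study's methods and the submitters' processing notes, the authors trimmed reads (Trim Galore 0.6.6, FastQC 0.11.9), aligned them to mature miRBase sequences with Bowtie 1.3.0 and counted them with SAMtools 1.12 in an nf-core pipeline with GRCm38. The authors deposited raw counts per mature miRNA and library, with no normalisation. Normalisation and tests were computed here from these counts. Table rows and samples were joined on the library number that appears in both names, although the prefix differs.

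Groups came from the treatment labels, and replicates were numbered in accession order. In R 4.3.3, filterByExpr of edgeR 4.0.16 (minimum count 10, minimum total 15) kept 428 of 1412 miRNAs, TMM scaled the libraries, and limma-voom (limma 3.58.1) was fitted to all 18 libraries with 5 group means. The contrasts were day 7 minus day 1 in injured knees, the same in contralateral knees, and their difference. Each was adjusted by the Benjamini-Hochberg method at 0.05. The fit treated libraries as independent, since the labels do not say which share a pool, and naive left and right knees may share mice. Fits without naive libraries were among the alternatives. Counting error is largest in the library with 758388 counts. Identical counts were found in 7 sets of 15 miRNAs. On counts simulated for 428 miRNAs, the comparison of injured day 7 with day 1 recovered 48.0% of 2-fold and 92.9% of 4-fold changes. The simulation changed 100 miRNAs at each fold, as many up as down, whereas 67 were called in the data, mostly rises. These shares may therefore overstate what the comparison recovers in the data.

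The named miRNAs were the 12 largest rises and 12 largest falls of at least 10 CPM, the 5 smallest p-values, the 10 most abundant, every member of a list that had at most 6 tested miRNAs (some by range), and calls that share a seed. Other miRNAs in the text were named after their values were seen. The members and lists were chosen with earlier results of these data known. Alternatives were other scalings, filters and samples, voomWithQualityWeights, edgeR's quasi-likelihood test, DESeq2 1.42.0, and leaving out each injured or contralateral library. The 12-library fit was added after the data were seen. Plots used Python 3.11.15 with matplotlib 3.10.9.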

Additional observations from a re-analysis of the deposited data

Results flagged for a closer look

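For 29 miRNAs the change from day 1 to day 7 differed between the injured and the contralateral knee by a test of the difference itself (limma-voom, Benjamini-Hochberg adjusted over 428 miRNAs). The values are the injured log2 fold change minus the contralateral one, and all are positive. Outside the 12qF1 cluster they were 4.02 for miR-335-3p, 3.66 for miR-34b-3p, 3.48 for miR-335-5p, 2.67 for miR-31-5p, 2.57 for miR-34b-5p, 2.33 for miR-34c-5p, 1.75 for miR-21a-5p and 1.52 for miR-199a-5p. miR-335 and miR-34 each gave more than 1 arm, and miR-34c-3p was not among them (3.14, adjusted p = 0.136 by limma-voom). Over the 29 the contralateral log2 fold change had a median of -0.22 and a range of -1.35 to 0.31. For miR-335-5p it was -1.14, beside 2.34 in the injured knee. The summed miR-335 level was 7.55, 56.6 and 62.0 CPM in the contralateral day 7 libraries.

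Within the 12qF1 cluster the 21 values were 4.88 for miR-323-3p, 4.40 for miR-380-3p, 2.70 for miR-1193-3p, 2.61 for miR-379-3p, 2.58 for miR-411-3p, 2.52 for miR-134-5p, 2.51 for miR-431-5p, 2.50 for miR-300-3p, 2.43 for miR-410-3p, 2.36 for miR-409-3p, 2.26 for miR-495-3p, 2.22 for miR-434-5p, 2.01 for miR-541-5p, 1.95 for miR-337-5p, 1.92 for miR-381-3p, 1.87 for miR-379-5p, 1.71 for miR-382-5p, 1.69 for miR-411-5p, 1.44 for miR-369-5p, 1.41 for miR-329-3p and 1.40 for miR-127-3p. The highest values belonged to scarce members such as miR-323-3p and miR-380-3p, and the lowest to the abundant miR-127-3p. That of miR-323-3p joined an injured change of 3.53 and a contralateral one of -1.35.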

How the results depend on the processing

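No paired analysis was possible because the labels carry no replicate numbers and name no pool of mice for a library. Of the 67 calls, 43 were kept in every alternative that tested them, and none of the 67 changed sign. The number of rises stayed between 35 and 71. The number of falls moved more, from 15 to 3 with library totals (miR-378a-3p, miR-486a-5p and miR-486b-5p), 9 with every miRNA of at least 1 count, 9 with at least 10 counts in every library, 23 with DESeq2, 41 with voomWithQualityWeights and 8 with the 12 injured and contralateral libraries. Leaving out 1 library gave 2 to 13 falls, with 9, 6, 6, 6 and 2 without day 1 injured replicates 2 and 3 and day 7 injured replicates 1, 2 and 3, and 8, 9 and 7 without contralateral day 1 replicates 1, 2 and 3. The cause was not tested. Leaving out a library also changed which miRNAs passed the filter. The difference between knees gave 22 to 38 calls with the larger rise in the injured knee, and calls the other way numbered 3 with voomWithQualityWeights, 1 without day 1 injured replicate 2 and 2 without contralateral day 1 replicate 2. The contralateral knee had 2 calls with DESeq2, miR-199b-5p and miR-1291.

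Some miRNAs that were not called changed sign. let-7f-5p had log2 fold changes of 0.0247 with DESeq2 size factors, 0.0543 with library totals, 0.0482 with at least 10 counts in every library, 0.0272 with DESeq2, 0.0266 with the 6 injured libraries and 0.00166 with the 12 libraries. With single libraries left out, it ran from -0.0664 to 0.204, miR-148a-3p from -0.537 to 0.519, miR-1a-3p from -1.13 to 0.0429, miR-455-3p from -0.318 to 0.0130, miR-99a-5p from -0.380 to 0.0236 and miR-673-3p from -0.00827 to 0.672. In simulated counts, 2-fold changes were recovered for 47 of 98 miRNAs, and no split by depth was made.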
